A study of Schizosaccharomyces pombe with 16 samples.

Results

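Fission yeast keeps zinc in balance with a small group of genes, and 5 of the 7022 features in the deposited table were taken from it by their locus identifiers: zrt1 (SPBC16D10.06), adh1 (SPCC13B11.01), adh4 (SPAC5H10.06c), zhf1 (SPAC23C11.14) and loz1 (SPAC25B8.19c). All 5 had enough reads to be tested, among 6420 features in all. The zrt1 gene encodes the zinc uptake transporter of the plasma membrane, and zhf1 encodes a transporter that moves zinc out of the cytosol into internal stores. The adh1 gene encodes the main fermentative alcohol dehydrogenase, an abundant enzyme that binds zinc, and adh4 encodes an alcohol dehydrogenase of the iron-dependent family. The loz1 gene encodes a zinc-finger repressor. As background, Loz1 is known to hold down zrt1, adh4, an antisense transcript of adh1 (adh1AS) and its own gene when zinc is plentiful, through DNA that contains a GATC core. When zinc is scarce this repression is lifted, zrt1 and adh4 are expressed, and adh1AS is made while adh1 falls.

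Polyadenylated RNA was sequenced with strand kept, from strains in which the repeated tail of RNA polymerase II, the carboxy-terminal domain (CTD) of Rpb1, had substitutions. The control strain WT carried rpb1CTD-WT 1-18, an rpb1 allele that encodes the CTD without a substitution. Rpb1CTD-Y1F replaced tyrosine by phenylalanine, rpb1CTD-S2A and rpb1CTD-S7A replaced serine by alanine, and rpb1CTD-T4A replaced threonine by alanine. The double mutants rpb1CTD-Y1F-S7A, rpb1CTD-S2A-S7A and rpb1CTD-T4A-S7A combined S7A with each of the other changes. All strains carried ade6, ura4-D18 and leu1-32 and were h-, except S2A, which was h+, so that the CTD change and the mating type cannot be told apart in any comparison of S2A. Cultures were grown in YES, a rich medium of yeast extract and supplements, at 30 °C to an OD600 between 0.4 and 0.7, with 2 biological replicates per strain and 16 libraries in all. Zinc in the medium or the cells was not among the values analysed here. A library held between 18677921 and 31254978 counted reads. Levels are CPM, reads scaled to library size after TMM normalization. A change is a log2 fold change with its SE, and each strain has n = 2. A gene is said to rise or fall where edgeR's quasi-likelihood test gave a Benjamini-Hochberg adjusted p under 0.05 over all features tested. With n = 2, libraries of a strain can all lie above or below those of another without a difference between the strains. How often this occurs over all features was not counted, so such statements describe the values and carry no test.

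The genes lie on 3 chromosomes. The build of the deposited coordinates is not given in the sources used here. By those coordinates the zrt1 feature is chromosome II 3607199 to 3609330 on the plus strand, adh1 is III 1589427 to 1592889 on the plus strand and adh4 is I 156430 to 158279 on the minus strand. The zhf1 feature is I 2158659 to 2160086 on the plus strand and loz1 is I 4192070 to 4195228 on the minus strand. RefSeq's ASM294v3 annotation has adh1 as a shorter gene, III 1591292 to 1592889, so the deposited adh1 feature reaches further upstream. Of the 6844 features matched to that annotation by locus tag, 6766 (98.9%) shared at least 1 end with the reference gene.

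The DNA upstream of the genes is shown first because the known repressor acts there. The zrt1 promoter, from 250 bases before to 50 bases after its annotated start, is given from the ASM294v3 assembly of RefSeq, read on the gene's strand, chrII:3606927-3607226. The capitals mark a match to CGNNGATC, the core of the element attributed to Loz1.
zrt1 promoter: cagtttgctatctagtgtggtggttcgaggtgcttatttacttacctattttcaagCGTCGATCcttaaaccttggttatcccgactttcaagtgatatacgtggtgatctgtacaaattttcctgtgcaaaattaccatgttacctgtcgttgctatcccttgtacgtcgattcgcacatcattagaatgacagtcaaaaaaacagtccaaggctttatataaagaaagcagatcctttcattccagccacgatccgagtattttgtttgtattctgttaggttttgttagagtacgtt
Matches were searched on both strands. The zrt1 match in this window starts 194 bases before the annotated start, and 188 of 5112 promoters (3.68%) held such a match. The shorter string GATC alone was in 2177 of them (42.6%) and occurs 4 times in the zrt1 window, once inside the core match. Of the 5 genes, zrt1 and loz1 held the core in this window. The same window of the reference adh1AS (SPNCRNA.1710) held 0 matches to the core and 0 to GATC, and adh1AS was not searched further upstream.

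With the window extended to 1000 bases before the start, chosen after the shorter window had been read, 652 of 5112 promoters (12.8%) held the core. Among the 5 genes it was then found for zrt1, adh4, zhf1 and loz1, and these letters are not in the adh1 window. The stretches of 30 bases around the matches follow, on the gene's strand, with the match at the named position in capitals. The second zrt1 site, at -477, is written as the reverse complement of the core. The adh4 sites lie upstream of the deposited feature's own start.
zrt1 at -477, chrII:3606689-3606718: tggttgtgacaGATCGACGtcaatctgcaa
zrt1 at -194, chrII:3606972-3607001: ctattttcaagCGTCGATCcttaaaccttg
adh4 at -720, chrI:158634-158663: catggtaaatcCGTGGATCttctagaagat
adh4 at -672, chrI:158586-158615: atcagcatcgaCGACGATCacgtcaaataa
zhf1 at -681, chrI:2157615-2157644: tcgtttatgaaCGAAGATCataaaacattg
loz1 at -394, chrI:4195589-4195618: tgttacttcaaCGCAGATCattcgtcgatc
loz1 at -383, chrI:4195578-4195607: cgcagatcattCGTCGATCatatgggaatg
loz1 at -72, chrI:4195267-4195296: aggtaacattaCGCCGATCaccgttaaaaa
loz1 at -68, chrI:4195263-4195292: aacattacgccGATCACCGttaaaaaagct
The loz1 matches at -72 and -68 overlap each other on opposite strands. The stretches around the loz1 matches at -394 and -383 overlap as well, and each holds the other match in lower case. A match is a description of the sequence, and binding was not measured in these data.

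In WT, adh1 was by far the most abundant of the 5. Per kilobase of the deposited feature, its level was 1930 CPM, against 289 for zhf1, 161 for adh4, 114 for zrt1 and 13.8 for loz1. On the reference gene's length adh1 stood at 4180 CPM per kilobase. Reads of adh1 were 0.605 to 1.25% of a library, and it ranked between 2 and 7 by count among all features.

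**Figure D1:**
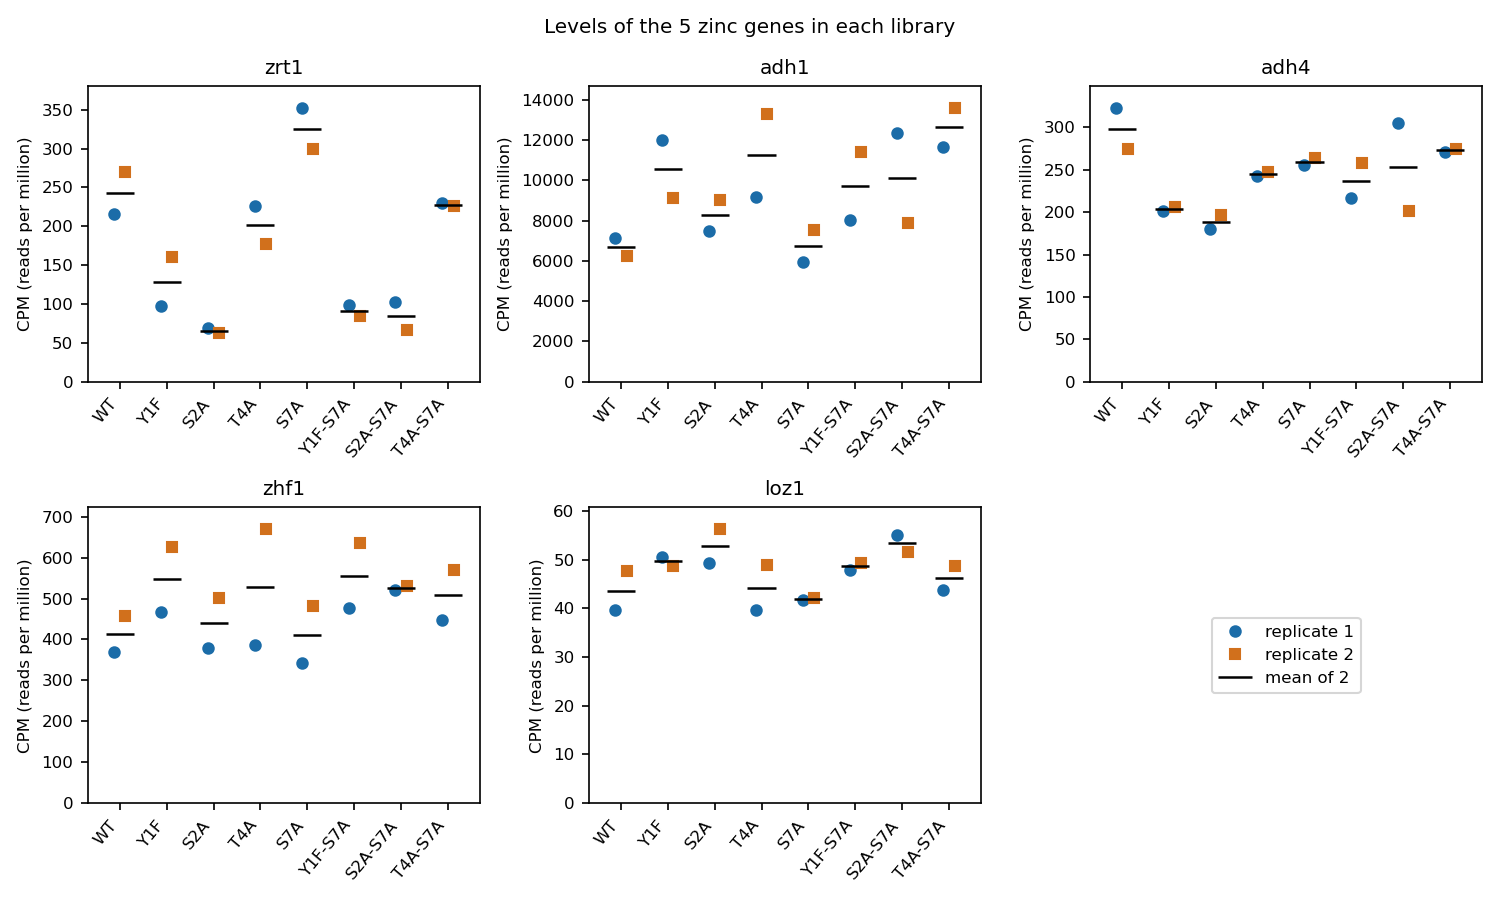
CPM, reads scaled to library size, of each gene (vertical axis, from 0, a scale of its own per panel) in the 8 strains, with replicate 1 as circles, replicate 2 as squares and the mean as a bar. The zrt1 libraries of S2A, Y1F-S7A and S2A-S7A sit between 63.3 and 102.5 CPM, below both WT libraries, and the adh1 libraries of S7A overlap those of WT, while those of the other mutants lie above WT.

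The uptake transporter zrt1 was the gene of the 5 that differed most between strains. Its level was 216 and 270.4 CPM in the WT libraries, 68.5 and 63.3 in S2A, 102.5 and 65.9 in S2A-S7A, and 98.3 and 83.9 in Y1F-S7A. These 6 mutant libraries were all below both WT libraries. Against WT, zrt1 fell by 1.88 ± 0.26 in S2A (adjusted p = 0.000501), which is 3.69-fold lower. It fell by 1.53 ± 0.26 in S2A-S7A (adjusted p = 0.00208) and by 1.42 ± 0.25 in Y1F-S7A (adjusted p = 0.00752). Each library is a whole culture, so less zrt1 RNA per cell and fewer cells expressing it cannot be told apart. In Y1F-S7A the difference did not pass when WT replicate 2 was left out (-1.24, adjusted p = 0.0593) or Y1F-S7A replicate 2 was (-1.31, adjusted p = 0.0733). The S2A and S2A-S7A calls held without each of their 4 libraries in turn.

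In the Y1F single mutant zrt1 was at 96.8 and 159.9 CPM. Both libraries were below both of WT. The difference of -0.92 ± 0.25 did not pass the threshold (adjusted p = 0.0823). It passed with the replicate number as a block (adjusted p = 0.0468) and in DESeq2 (adjusted p = 0.015). It did not pass with RLE factors, with no low-count filter or with Y1F and WT fitted alone. Leaving out single libraries of Y1F or WT moved the difference between -1.33 and -0.60.

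The strains with T4A or with S7A alone kept zrt1 near or above WT. The level was 226.5 and 177 CPM in T4A and 229.7 and 226 in T4A-S7A, and both strains overlapped WT (-0.27 ± 0.25 and -0.09 ± 0.25, adjusted p = 0.942 and 0.934). In S7A it was 352 and 299 CPM, above both WT libraries, but the difference of 0.42 ± 0.25 did not pass (adjusted p = 0.604).

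**Figure D2:**
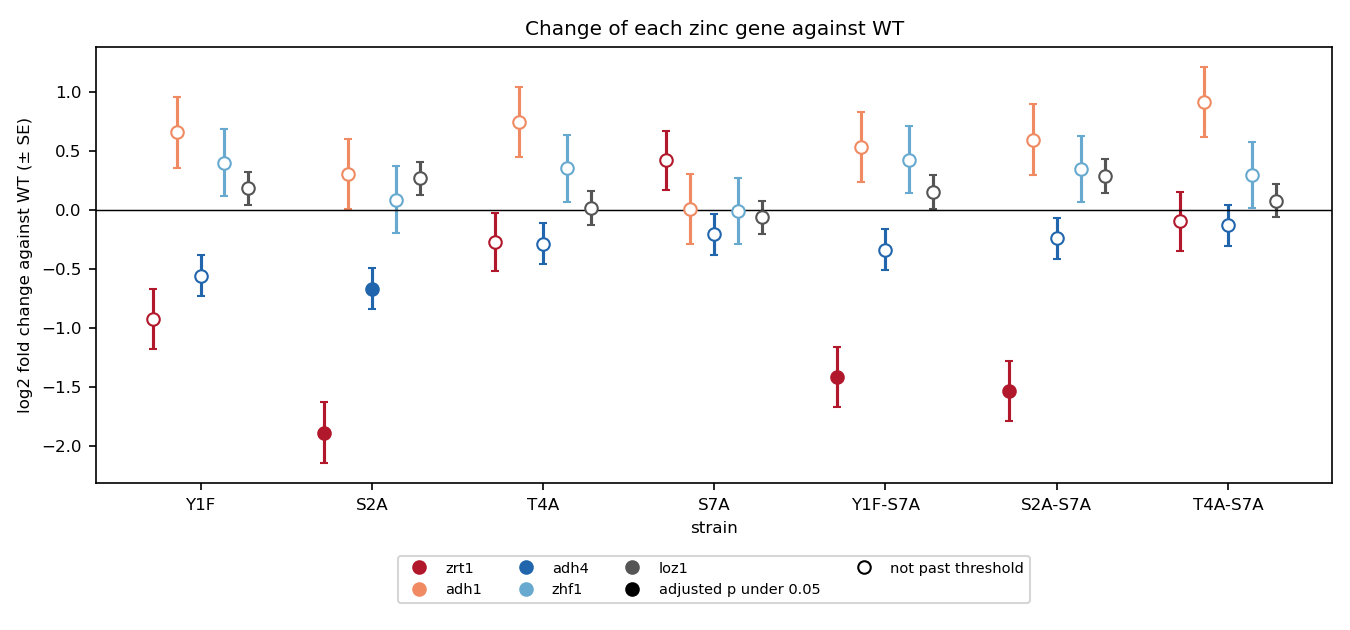
Log2 fold change against WT (vertical axis) for the 5 genes in the 7 mutants, with bars of ± SE and filled points where the adjusted p was under 0.05. The filled points are zrt1 in S2A (-1.88), Y1F-S7A (-1.42) and S2A-S7A (-1.53) and adh4 in S2A (-0.66).

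Over the 7 comparisons with WT the test called 4 results for these genes. These were 2 of the 5 in S2A (zrt1 and adh4), 1 each in Y1F-S7A and S2A-S7A (zrt1) and 0 in the others. The same rule called 11.9% of all features in S2A, 7.21% in Y1F-S7A and 16.5% in S2A-S7A, so that a count of 1 of 5 in the latter is near the background. It called 2.96% in Y1F, 1.71% in S7A, 2.79% in T4A-S7A and 0.0935% in T4A. Counting lower features alone, it called 4.72% in S2A, 3.47% in Y1F-S7A and 8.04% in S2A-S7A. With the replicate number as a block, 8 results were called, 2 each in Y1F, S2A, Y1F-S7A and S2A-S7A, where the block called 12.6%, 29.4%, 24.9% and 37.9% of all features.

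In the 4 mutants with 0 called genes, the unadjusted p was under 0.05 for zrt1, adh1 and adh4 in Y1F and for adh1 in T4A and T4A-S7A. In S7A it was under 0.05 for 0 of them. The share of all features under that unadjusted threshold was not counted. These genes are therefore not set against a background, and they are not called. DESeq2 called zrt1 in Y1F (6.82% of features called by DESeq2), adh1 in T4A-S7A (5.95%), and 0 of the 5 genes in T4A (1.09%) and S7A (4.69%).

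The double mutants were also set against the single mutants they combine. The zrt1 gene was lower in Y1F-S7A than in S7A by 1.84 on the log2 scale (-1.84 ± 0.26, adjusted p = 0.00212), where 5.06% of features were called. It was lower in S2A-S7A than in S7A (-1.95 ± 0.26, adjusted p = 0.000679), where 14.1% were called. Both calls held without each library in turn. The T4A-S7A libraries were both below S7A, with a difference of -0.51 ± 0.25 that did not pass (adjusted p = 0.423). The T4A-S7A and S7A comparison called 1.29% of features. Against the other partner, zrt1 in the doubles differed by -0.49 ± 0.25 from Y1F, 0.36 ± 0.25 from S2A and 0.18 ± 0.25 from T4A, with adjusted p = 0.965, 0.634 and 0.974. Libraries overlapped in all 3 of these pairs, which called 0.0156%, 0.483% and 0.187% of features. The interaction, which asks whether the S7A change shifts zrt1 differently in another mutant than in WT, was -0.92 ± 0.35 for Y1F, -0.07 ± 0.35 for S2A and -0.25 ± 0.35 for T4A, and none passed (adjusted p = 0.725, 0.998 and 0.999). For the 5 genes edgeR called 0 interactions, against 0%, 0.483% and 0.0156% of features with Y1F, S2A and T4A. The unadjusted p was under 0.05 for zrt1 with Y1F and adh4 with S2A, where the share of all features was again not counted. DESeq2 called 0 for these genes, against 0.985%, 2.65% and 0.576% of features.

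A joint test of whether Y1F, S2A, T4A and S7A had equal levels called zrt1 alone of the 5 genes (adjusted p = 0.00042), where 17.5% of all features were called. It held without each of the 8 single mutant libraries in turn, with adjusted p from 0.000237 to 0.00502. The joint adjusted p was 0.199 for adh4, 0.269 for adh1, 0.306 for loz1 and 0.635 for zhf1.

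By mean CPM zrt1 ran from 325.6 in S7A through 243 in WT, 228 in T4A-S7A, 202 in T4A, 128 in Y1F, 91.1 in Y1F-S7A and 84.2 in S2A-S7A to 65.9 in S2A. No strain differed from the next in this order past the threshold. The libraries of S7A and WT, and those of T4A and Y1F, did not overlap, while those of the other neighbours did. Over all 28 pairs of strains, 14 passed for zrt1.

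Other pairs separate the T4A strains from those with S2A or with Y1F and S7A together. The level was higher than in S2A by 1.61 ± 0.26 in T4A, 2.31 ± 0.26 in S7A and 1.79 ± 0.26 in T4A-S7A (adjusted p = 0.00118, 0.00019 and 0.000719). It was lower in S2A-S7A than in T4A (-1.26 ± 0.25, adjusted p = 0.00475) and higher in T4A-S7A than in S2A-S7A (1.44 ± 0.25, adjusted p = 0.00269). These 5 calls held without each library in turn. In the order given, the comparisons called 16.4%, 14.8%, 13.9%, 21.9% and 17.3% of all features.

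The other 4 calls among pairs each depended on single libraries. The S2A level was below Y1F (-0.96 ± 0.25, adjusted p = 0.0445, 6% of features called), and the call was lost without S2A replicate 1 (-1.02, adjusted p = 0.179), S2A replicate 2 (-0.90, 0.211) or Y1F replicate 2 (-0.56, 0.4). S7A was above Y1F (1.34 ± 0.25, adjusted p = 0.0107, 4.6% called), and this was lost without Y1F replicate 1 (1.03, adjusted p = 0.0854) or S7A replicate 1 (1.21, 0.0829). Y1F-S7A was below T4A (-1.15 ± 0.25, adjusted p = 0.016, 3.96% of features called lower), lost without T4A replicate 1 (-0.96, adjusted p = 0.112) or Y1F-S7A replicate 1 (-1.27, 0.0628) or 2 (-1.04, 0.104). T4A-S7A was above Y1F-S7A (1.32 ± 0.25, adjusted p = 0.011, 6.99% called), and each of the 4 libraries ended that call when left out, with values of 1.21 to 1.44 and adjusted p of 0.0524 to 0.0903.

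In the authors' deposited table, which rests on their own DESeq runs, zrt1 had a log2 fold change against WT of -2.11 in S2A (adjusted p = 1.45e-12), -1.75 in S2A-S7A (adjusted p = 1.04e-06) and -1.56 in Y1F-S7A (adjusted p = 3.16e-05). The authors' deposited table gave -1.02 in Y1F with an adjusted p of 0.0881.

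The iron-type alcohol dehydrogenase gene adh4 was highest in WT and lowest in S2A, within a narrower range than zrt1. It was at 323 and 274 CPM in WT, 180.5 and 197 in S2A and 201 and 206 in Y1F. Both S2A libraries and both Y1F libraries were below WT, and both S2A libraries were also below both Y1F libraries. Against WT, adh4 fell by 0.66 ± 0.18 in S2A (adjusted p = 0.0283), while the Y1F difference of -0.55 ± 0.18 did not pass (adjusted p = 0.137, or 0.0344 with the replicate number as a block). The S2A call was lost when any of its 4 libraries was left out. Leaving out WT replicate 1 gave -0.54 (adjusted p = 0.172) and leaving out WT replicate 2 gave -0.77 (0.0547). Leaving out S2A replicate 1 gave -0.60 (0.174) and S2A replicate 2 gave -0.72 (0.0855). It was also lost when the S2A and WT libraries were fitted alone (adjusted p = 0.0539). The authors' deposited table had adh4 at -0.89 in S2A (adjusted p = 0.00865).

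In the strains with S7A, adh4 lay between these levels. It was at 255 and 264 CPM in S7A, 217 and 258 in Y1F-S7A, 305 and 201 in S2A-S7A and 271.5 and 275 in T4A-S7A, and at 243 and 248 in T4A. Both libraries of each double mutant were above both libraries of its partner without S7A, while both S7A libraries were below both WT libraries. None of these differences passed the test. The change from single to double was 0.22 ± 0.17 for Y1F, 0.42 ± 0.17 for S2A and 0.16 ± 0.17 for T4A (adjusted p = 1, 0.343 and 0.954), and S7A differed from WT by -0.20 ± 0.17 (adjusted p = 0.798). The interactions were 0.42 ± 0.25, 0.63 ± 0.25 and 0.36 ± 0.25 (adjusted p = 1, 0.419 and 0.999). The S2A-S7A libraries were far apart, and without S2A-S7A replicate 1 adh4 was lower than in WT by -0.57 with an adjusted p of 0.037, against -0.24 ± 0.17 and 0.404 with it.

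By mean CPM adh4 ran from 299 in WT through 273 in T4A-S7A, 259.6 in S7A, 253 in S2A-S7A, 245 in T4A, 237 in Y1F-S7A and 203 in Y1F to 188.5 in S2A. No neighbours in this order differed past the threshold, although the libraries of T4A-S7A and S7A, of Y1F-S7A and Y1F and of Y1F and S2A did not overlap. Of the pairs of strains, 1 of 28 passed, S2A against WT. With the replicate block S2A was also lower than S7A (S7A minus S2A 0.46, adjusted p = 0.0338) and T4A-S7A (0.53, adjusted p = 0.0178), in comparisons where the block called 34.7% and 33.4% of features.

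The zinc-binding alcohol dehydrogenase gene adh1 did not differ past the threshold in any of the 28 pairs of strains. Its level was 7147 and 6218 CPM in WT and 5954 and 7511 in S7A. It was 9187 and 13300 in T4A and 11650 and 13590 in T4A-S7A. The T4A and T4A-S7A libraries were all above both WT libraries, and those of S7A overlapped WT. The largest difference from WT was in T4A-S7A, at 0.92 ± 0.30 (adjusted p = 0.163), which passed in DESeq2 (0.92, adjusted p = 0.0197). T4A-S7A was above S7A by 0.91 ± 0.30 (adjusted p = 0.2, and 0.0286 in DESeq2, which called 4.7% of features there). The authors' deposited table gave 0.91 for T4A-S7A against WT with an adjusted p of 0.0772.

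Replicates of adh1 were far apart in several of the remaining strains. The level was 11990 and 9111 CPM in Y1F, 7476 and 9034 in S2A, 8004 and 11400 in Y1F-S7A and 12350 and 7891 in S2A-S7A. All of these 8 libraries were above both WT libraries, which are the same 2 in each comparison. The differences from WT were 0.66 ± 0.30, 0.31 ± 0.30, 0.54 ± 0.30 and 0.60 ± 0.30, with adjusted p between 0.202 and 0.59. The order of means ran from 12620 CPM in T4A-S7A to 6683 in WT, and libraries of every pair of neighbours overlapped.

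The strand opposite adh1 was examined because adh1AS is part of the known zinc response. The deposited feature SPCC13B11.02c, III 1589996 to 1593818 on the minus strand, overlaps the reference adh1AS (SPNCRNA.1710, III 1590025 to 1593983 in ASM294v3) over 3794 bases, 95.8% of it, and overlaps the deposited adh1 feature by 2894 bases. The kit keeps strand per the labels, but the sources used here do not say whether the counting used it. The feature had 13.5 and 15.8 CPM in WT, 22.7 and 43.7 in S7A, 16.3 and 46.6 in T4A and 14.6 and 70.0 in Y1F-S7A. It had 16.1 and 21.4 CPM in Y1F, 17.5 and 23.6 in S2A, 24.9 and 14.8 in S2A-S7A and 18.1 and 29.0 in T4A-S7A. Replicate 2 was the higher library in every strain but S2A-S7A, where replicate 1 was higher, and the libraries of Y1F-S7A and S2A-S7A overlapped those of WT. No difference from WT passed, the largest being 1.52 ± 0.66 in Y1F-S7A (adjusted p = 0.198). Its reads came to between 0.134 and 0.614 per 100 adh1 reads in a library, although it spans the whole reference adh1 gene. The adh1 reads were thus for the most part not counted in it as well. Whether the reads it had include adh1 RNA assigned to the wrong strand was not tested.

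**Figure D3:**
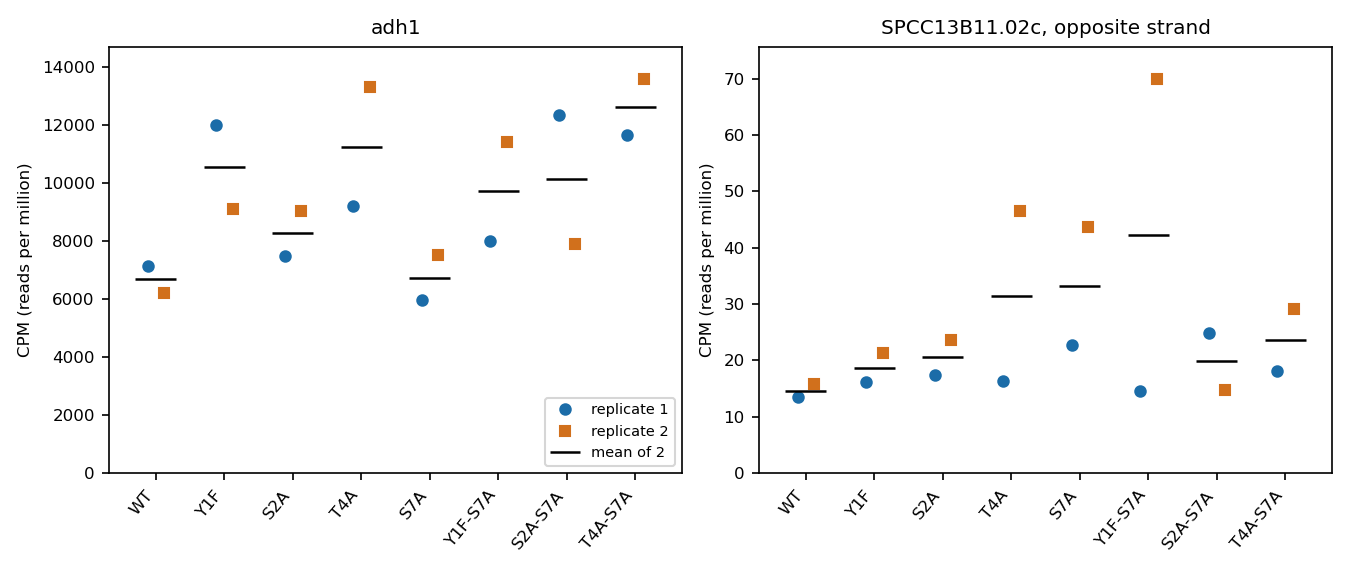
CPM (vertical axes, from 0) of adh1, left, and of the feature on the opposite strand that covers adh1AS, right, in each library, with circles for replicate 1, squares for replicate 2 and bars for means. The right panel reaches 70.0 CPM in 1 library of Y1F-S7A against 14.6 in the other.

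The storage transporter gene zhf1 followed the replicate number more than the strain. It was at 369 and 457 CPM in WT, 467 and 626 in Y1F, 387 and 669 in T4A and 478 and 634 in Y1F-S7A. Replicate 2 was above replicate 1 in all 8 strains, by 0.40 ± 0.07 in the fit with the replicate block (adjusted p = 0.000338). For the other 4 genes that term had an adjusted p of 0.139 to 0.691. No pair of strains passed for zhf1 without the block. With the block, zhf1 was higher in Y1F-S7A than in WT (0.42, adjusted p = 0.0407) and than in S7A (0.44, adjusted p = 0.0405), and higher in S2A-S7A than in S7A (0.39, adjusted p = 0.047). The blocked comparisons with S7A called 19.7% and 33.4% of features.

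The zhf1 level was 378 and 502 CPM in S2A, 341 and 482 in S7A, 522 and 530.5 in S2A-S7A and 448 and 569 in T4A-S7A. Mean levels ran from 556 CPM in Y1F-S7A to 412 in S7A, and the libraries of every pair of neighbours in the order overlapped.

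The repressor gene loz1 was the least abundant of the 5 and had the smallest range of strain means. It was at 39.6 and 47.7 CPM in WT, 49.2 and 56.2 in S2A, 55.04 and 51.7 in S2A-S7A and 41.6 and 42.1 in S7A. The S2A and S2A-S7A libraries were all above both WT libraries. The differences from WT were 0.27 ± 0.14 in S2A (adjusted p = 0.266) and 0.29 ± 0.14 in S2A-S7A (adjusted p = 0.193), and the second passed with the replicate block (adjusted p = 0.0489). With the block loz1 was also higher in S2A-S7A than in S7A (0.35, adjusted p = 0.0248, against 0.131 without it) and lower in S7A than in S2A (-0.33, adjusted p = 0.0331, against 0.143 without it).

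The remaining loz1 levels were 50.6 and 48.8 CPM in Y1F, 39.7 and 48.8 in T4A, 47.9 and 49.3 in Y1F-S7A and 43.8 and 48.6 in T4A-S7A. No pair of strains passed for loz1 without the block, and mean levels ran from 53.4 CPM in S2A-S7A to 41.8 in S7A with overlap between all neighbours.

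By the TMM-scaled levels, zrt1 and its repressor gene loz1 ran in close to opposite order across strains. In the authors' deposited table loz1 was nearer to WT than here in S2A (log2 fold change 0.045), S2A-S7A (0.062), Y1F (0.097) and Y1F-S7A (0.005). The others were 0.068 in T4A, -0.107 in S7A and 0.077 in T4A-S7A. Whether the opposite order depends on the scaling was not tested. The Pearson correlation of zrt1 and loz1 was -0.943 over the 8 strain means of log2 CPM and -0.758 over the 16 libraries. For zrt1 and adh4 it was 0.723 and 0.635, and for adh1 and zhf1 it was 0.834 and 0.638. For zrt1 and adh1 it was -0.22 over strain means. These values describe points that share libraries and sequencing depth, and the strains are few. They carry no test.

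**Figure D4:**
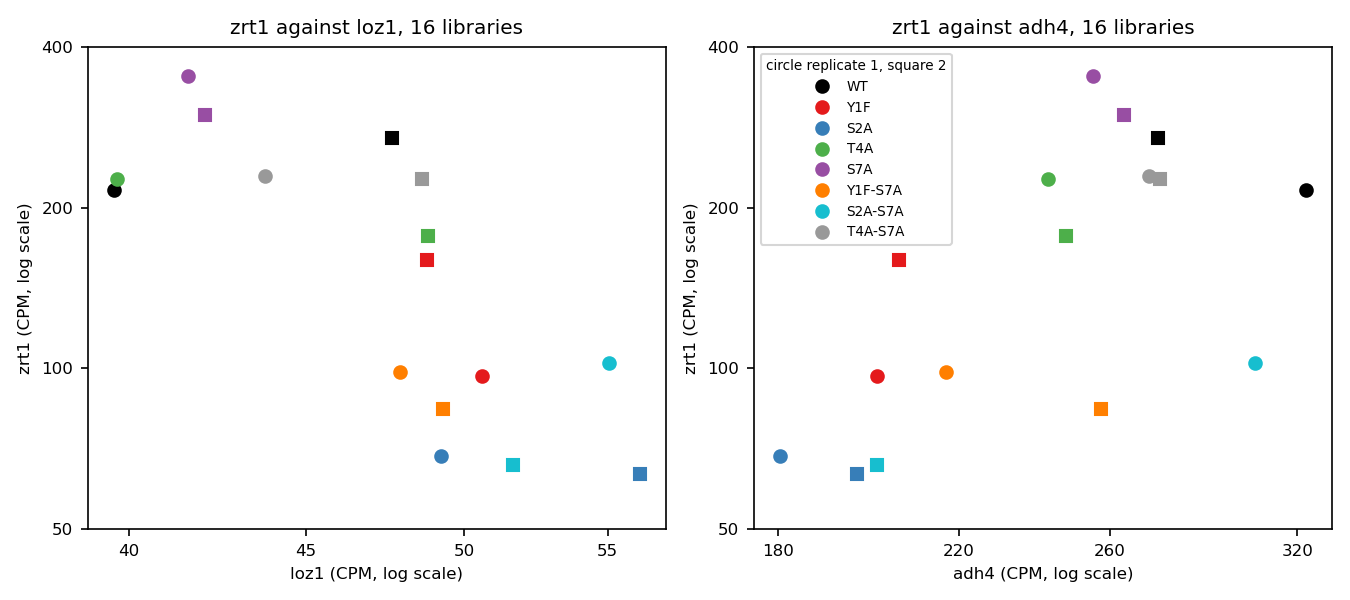
The zrt1 level (vertical axes, CPM, log scale) against loz1, left, and adh4, right (horizontal axes, CPM, log scale), in the 16 libraries, coloured by strain with circles for replicate 1 and squares for replicate 2. The S2A and S2A-S7A libraries lie at the lower right of the left panel, and in the right panel S2A-S7A replicate 1 has zrt1 at 102.5 CPM with adh4 at 305 CPM.

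The 4 features whose strain means ran most like those of zrt1 were cut20 (0.979), SPNCRNA.1417 (0.967), pfa5 (0.965) and SPCC1620.13 (0.962), among 756 features whose log2 CPM averaged 3 or more and spanned 1 or more between strains. As they were picked for following zrt1 over strains that include S2A and WT, a lower level in S2A was built into the choice. Their log2 fold changes in S2A against WT were -1.41 (pfa5), -1.52 (SPCC1620.13), -1.997 (SPNCRNA.1417) and -0.83 (cut20). These values describe the picked features and are no separate support for the zrt1 result. For adh4 they were put4 (0.914), gep4 (0.911), SPNCRNA.1096 (0.884) and sam1 (0.881), and for adh1 they were bfr1 (0.876), atd1 (0.857), SPNCRNA.857 (0.822) and SPNCRNA.897 (0.796). The atd1 gene encodes an aldehyde dehydrogenase. These are correlations over 8 strain means, and the likeness to adh1 was the weakest of the 3.

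Of 6 other genes that handle zinc, the iron and zinc transporter gene fet4 was the one that fell in more than 1 strain. It was at 13.9 and 20.9 CPM in WT, 7.98 and 9.36 in Y1F, 7.51 and 8.80 in S2A, 7.15 and 6.95 in Y1F-S7A and 8.38 and 6.43 in S2A-S7A. All 8 mutant libraries were below both WT libraries. The fet4 level fell in all 4 strains, with log2 fold changes of -1.23 ± 0.23 in S2A-S7A (adjusted p = 0.00413), -1.30 ± 0.23 in Y1F-S7A (0.00697), -1.09 ± 0.23 in S2A (0.00853) and -1.002 ± 0.23 in Y1F (0.0386). The S2A-S7A call held without each library in turn. WT replicate 2, the higher of the WT pair, ended the other 3 calls when left out, with values of -0.67 in Y1F (adjusted p = 0.33), -0.76 in S2A (0.0991) and -0.97 in Y1F-S7A (0.0706). The Y1F call was also lost without Y1F replicate 1 (-0.89, 0.242) or 2 (-1.12, 0.127), the S2A call without S2A replicate 1 (-0.98, 0.0915), and the Y1F-S7A call without Y1F-S7A replicate 1 (-1.32, 0.0501) or 2 (-1.28, 0.0604). When each mutant was fitted with WT alone, none of the 4 passed, with adjusted p of 0.248 in Y1F, 0.0587 in S2A, 0.0591 in Y1F-S7A and 0.0863 in S2A-S7A.

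The fet4 level was 14.2 and 13.8 CPM in T4A, 15.7 and 16.3 in S7A and 11.9 and 13.8 in T4A-S7A, and it passed in none of these strains (-0.31, -0.12 and -0.44). In T4A, S7A and T4A-S7A neither zrt1 nor fet4 was lower than WT past the threshold.

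Across the 6 zinc genes, 1 of 6 fell in Y1F (1.67% of features lower), S2A and Y1F-S7A, 2 of 6 in S2A-S7A and 0 of 6 in the other 3 mutants, and 0 of 6 rose. The median change of the 6 was -0.12 in S2A and -0.22 in S2A-S7A, beside -0.006 and -0.004 over all features. The second to fall in S2A-S7A was cis4, a zinc importer of the Golgi (-0.54 ± 0.12, adjusted p = 0.0118). It did not pass once WT replicate 2 was left out (-0.49, adjusted p = 0.0807) or S2A-S7A replicate 2 (-0.45, 0.0871), and when fitted with WT alone (adjusted p = 0.105). With the replicate block 1 of 6 fell in Y1F, 2 in S2A, 3 in Y1F-S7A and 3 in S2A-S7A, where that fit called 6.95%, 14%, 13.6% and 19.5% of all features lower. In Y1F-S7A 1 of 6 also rose, beside 11.4% of features higher.

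The gene that rose in that blocked fit was zym1, which encodes a metallothionein, a small protein that binds metal. It was at 13.02 and 12.8 CPM in WT, 26.0 and 23.6 in Y1F, 24.98 and 26.1 in Y1F-S7A, 11.7 and 31.2 in S2A-S7A and 7.23 and 7.23 in T4A-S7A. The Y1F and Y1F-S7A libraries were all above WT. Without the block the differences were 0.94 ± 0.36 in Y1F and 0.99 ± 0.36 in Y1F-S7A (adjusted p = 0.229 and 0.13), and the block gave an adjusted p of 0.0462 in Y1F-S7A. The joint test among single mutants gave zym1 an adjusted p of 0.0376 and fet4 one of 0.0186, where 17.5% of all features were called. Both calls depended on single libraries.

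**Figure D5:**
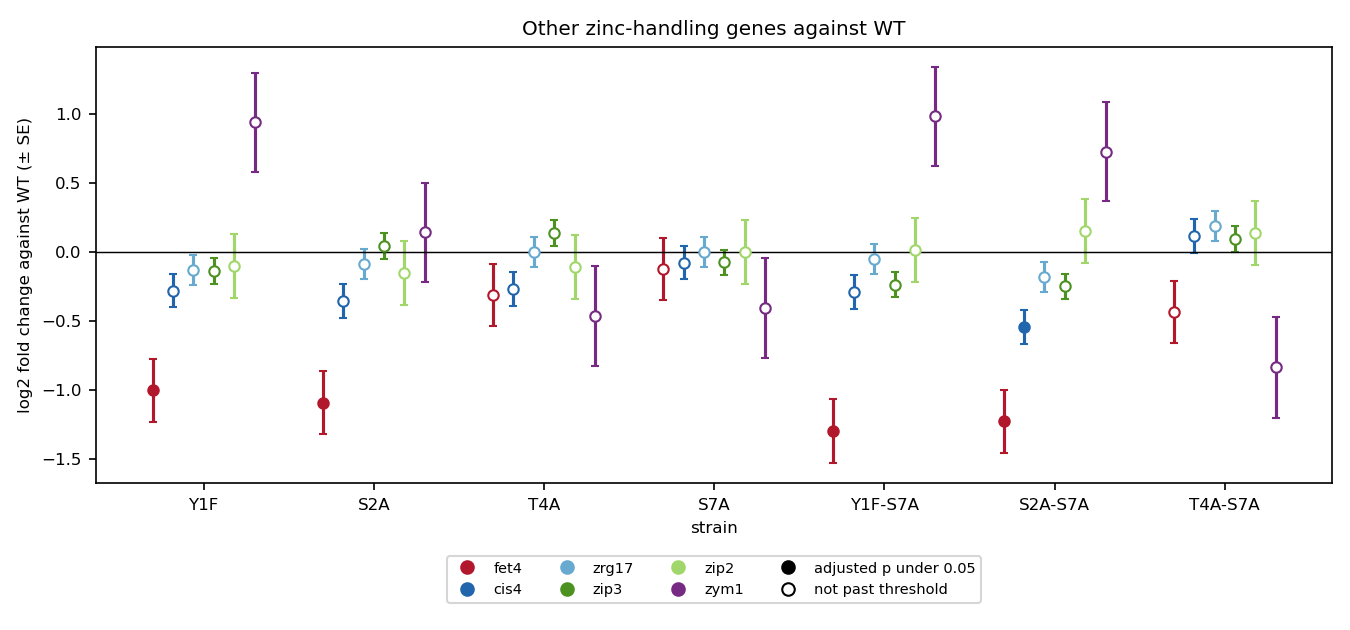
Log2 fold change against WT (vertical axis) of the 6 other zinc-handling genes in each mutant, with bars of ± SE and filled points where the adjusted p was under 0.05. The fet4 points are filled in Y1F, S2A, Y1F-S7A and S2A-S7A, between -1.002 and -1.30, and the cis4 point in S2A-S7A (-0.54).

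A list of 16 genes of alcohol and aldehyde metabolism was read, matched by symbol or product text. Not all 16 encode enzymes next to the alcohol dehydrogenases in fermentation. The product text also brought in semialdehyde dehydrogenases (lys1, hom2, ssd1 and ssd2) and formaldehyde dehydrogenases (fmd1, fmd2 and fmd3). Of the 16, 1 rose in every mutant but T4A, and it was pdc201 each time, which encodes a pyruvate decarboxylase. Of all features, 7.17% were higher in S2A and 8.49% in S2A-S7A, 1.29% in Y1F, 0.997% in S7A, 3.74% in Y1F-S7A and 1.11% in T4A-S7A. The pdc201 level was 4.57 and 3.14 CPM in WT, 10.9 and 15.6 in S2A and 13.5 and 13 in S2A-S7A. It rose by 1.78 ± 0.29 in both S2A (adjusted p = 0.00152) and S2A-S7A (adjusted p = 0.00162), and these calls held without each library in turn. The other increases were 1.39 (Y1F), 1.31 (S7A), 1.74 (Y1F-S7A) and 1.47 (T4A-S7A), and each was lost without at least 1 library. The adjusted p reached 0.219, 0.314, 0.053 and 0.151 in turn. Fitted with WT alone, pdc201 did not pass in Y1F (adjusted p = 0.159), S7A (0.17) or T4A-S7A (0.128).

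The aldehyde dehydrogenase gene atd2 fell in Y1F by 1.71 ± 0.23 (adjusted p = 0.00246), a call that held without each library in turn but not when Y1F and WT were fitted alone (adjusted p = 0.0783), from 36.1 and 25.2 CPM in WT to 10.6 and 8.11. It also fell in S2A (-0.83, adjusted p = 0.0284) and Y1F-S7A (-0.85, adjusted p = 0.0406), where leaving out single libraries gave adjusted p of up to 0.226 and 0.239. The formaldehyde dehydrogenase gene fmd2 fell in Y1F-S7A (-0.72, adjusted p = 0.0446) and S2A-S7A (-0.79, adjusted p = 0.0176), with adjusted p of up to 0.274 and 0.148 without single libraries. In all, 1 of 16 fell in Y1F, S2A and S2A-S7A, 2 in Y1F-S7A and 0 in T4A, S7A and T4A-S7A. The share of all features that was lower was 1.67% in Y1F, 4.72% in S2A, 8.04% in S2A-S7A and 3.47% in Y1F-S7A, so that 1 of 16 is near the background in S2A and S2A-S7A. Fitted with WT alone, fmd2 did not pass in Y1F-S7A (adjusted p = 0.149) or S2A-S7A (0.128), nor did atd2 in S2A (0.0741) or Y1F-S7A (0.111). With the replicate block 3 of 16 rose and 2 fell in Y1F and likewise in S2A, 2 rose and 3 fell in Y1F-S7A, 1 rose and 2 fell in S2A-S7A, 2 rose and 1 fell in T4A-S7A, and 1 rose and 1 fell in S7A. The blocked fit called 5.62% of features higher in Y1F, 15.4% in S2A, 11.4% in Y1F-S7A, 18.4% in S2A-S7A, 5.4% in T4A-S7A and 4.11% in S7A. Beside the lower shares for Y1F, S2A and the double mutants Y1F-S7A and S2A-S7A given with the zinc genes, it called 5.53% lower in T4A-S7A and 3.99% in S7A. Several of these counts, such as 1 of 16 higher and 2 of 16 lower in S2A-S7A, are at or under these shares.

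Among 8 genes of copper handling, 0 passed against WT in any mutant. The joint test among the single mutants called 17.5% of all features. In it the copper transporter subunits ctr4 (adjusted p = 0.0264) and ctr5 (adjusted p = 0.0163) passed. Without single libraries these reached 0.185 and 0.0788, and with the compared strains fitted alone 0.0878 and 0.0686. With the replicate block 1 of 8 fell in S2A, 1 in S7A and 2 in S2A-S7A, against the blocked lower shares of 14%, 3.99% and 19.5% of all features. Of 5 genes of heavy metal detoxification, a list that shares zym1 with the zinc genes, pcs2 fell in S2A-S7A (-0.53 ± 0.14, adjusted p = 0.0226), with an adjusted p of up to 0.128 without single libraries and 0.114 when fitted with WT alone. With the block 1 of 5, pcs2, fell in every mutant but S7A. The block called 1.2% of features lower in T4A, 5.53% in T4A-S7A and 6.95% in Y1F. It called 13.6% lower in Y1F-S7A, 14% in S2A and 19.5% in S2A-S7A, so that 1 of 5 is near the background in S2A-S7A. In the same fit 2 of 5 rose in Y1F-S7A and S2A-S7A, where 11.4% and 18.4% of all features were called higher. In Y1F, S2A and T4A-S7A 1 of 5 rose, beside 5.62%, 15.4% and 5.4% of features, so that 1 of 5 is near the background in S2A.

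The features beside the 5 genes are given as description. Those that passed against WT did so in S2A, S2A-S7A, S7A or T4A-S7A. These comparisons called 11.9%, 16.5%, 1.71% and 2.79% of all features. At the zrt1 locus, sir2, which encodes a histone deacetylase and overlaps the end of zrt1 by 114 bases on the opposite strand, fell in S2A-S7A (-0.77 ± 0.24, adjusted p = 0.0467). That call was lost without each of its 4 libraries and was 0.0516 with no low-count filter. In S2A the sir2 difference was -0.47 (adjusted p = 0.26). The next gene, hsp104, was 1.16 ± 0.46 above WT in S2A (adjusted p = 0.136). Downstream of adh1, SPNCRNA.1209 fell in S2A (-1.71 ± 0.42, adjusted p = 0.02) and S2A-S7A (-1.85 ± 0.43, adjusted p = 0.013), and without single libraries the adjusted p reached 0.157 and 0.0647. Beside zhf1, pst2 rose in S2A (0.59 ± 0.16, adjusted p = 0.0324, and up to 0.259 without single libraries). Beside loz1, ypf1 rose in S7A (0.82 ± 0.11, adjusted p = 0.00573) and T4A-S7A (0.68 ± 0.11, adjusted p = 0.00639, and up to 0.0739 without single libraries). Fitted with the compared strains alone, these differences from WT did not pass. The adjusted p was then 0.0835 for sir2, 0.0786 and 0.0886 for SPNCRNA.1209 in S2A and S2A-S7A, 0.0687 for pst2, and 0.0688 and 0.135 for ypf1 in S7A and T4A-S7A. The ypf1 level was also lower in Y1F-S7A than in S7A (-0.80, adjusted p = 0.00203), where 5.06% of features were called. The joint test among single mutants gave ypf1 an adjusted p of 7.87e-05, where 17.5% were called. Both of these calls held in every alternative run. The features on each side of adh4 did not pass against WT.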

How the data were processed

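Polyadenylated RNA of 8 fission yeast strains was sequenced as stranded paired-end libraries, 2 per strain, and the submitters' processing notes name Bowtie 0.12.7. The build, annotation version and counting tool are not given in the sources used here. Input to every test was the table in which the authors deposited whole-number read counts per feature. The deposited table also holds, per the file headers, log2 RPKM values (not used here), log2 fold changes with p-values from DESeq as run by the authors, and other columns such as feature width.

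The software was edgeR 4.0.16 with limma 3.58.1 in R 4.3.3. After filterByExpr by strain, 6420 of 7022 features were kept, scaled by TMM and fitted jointly in 16 libraries with a coefficient for each strain (8 residual degrees of freedom, common dispersion 0.0374). Two-sided quasi-likelihood tests were adjusted by Benjamini-Hochberg over all features of a comparison, with a threshold of 0.05. Comparisons were each mutant with WT, each double with its single mutants, the remaining pairs of strains, interactions and a joint test among single mutants. Alternatives were a block for the replicate number, RLE factors, keeping features of low count, fitting the compared strains alone, DESeq2 1.42.0, and each library left out, whose strain then has 1 library assumed to vary like the others. Same-numbered libraries deviated together in all 28 pairs of strains, with correlations of 0.245 to 0.667 between their deviations, so the numbers pair the samples on the evidence of the data. The main fit leaves this pairing out. Its SE is wider for a gene that follows the replicate number. For zhf1 in Y1F-S7A against WT it was 0.28 without the block and 0.14 with it. On simulated data for S2A against WT (6369 features) the test recovered 20% of features changed 1.5-fold, 62% at 2-fold and 100% at 4-fold, with 12 false calls. The simulation drew each library independently, with no replicate effect, and changed only features above a minimum expected count. Its recovery and false calls need not hold for the real libraries, where same-numbered libraries deviated together.

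The members and gene lists were chosen with earlier results of these data known. Named genes were the members, features next to or overlapping them, the 4 features most like zrt1, adh1 and adh4 over strain means, and the called genes of the lists. Lists were matched by symbol or product text in the RefSeq ASM294v3 table. Sequences come from that assembly.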

Additional observations from a re-analysis of the deposited data

How the results depend on the processing

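Against WT, 4 results of the 5 genes passed with the model as described. RLE factors or no low-count filter left that count at 4, the strains compared alone gave 3 and DESeq2 gave 6. With the replicate number as a block 8 passed, and leaving out single libraries gave 2 to 6, with 2 without WT replicate 2. Against the single mutants 2 passed, 5 with the replicate block, 3 in DESeq2 and 2 without each library. The joint test gave 1 and the interactions gave 0 under every alternative run. Among the other pairs 9 passed, 12 with the block and 6 to 11 without single libraries. Beyond the calls named with their blocked values in the report, the block changed no call of the 5 genes. Of 160 results for these genes, 16 passed, and 10 of these also passed without each of their libraries in turn. The comparisons behind these counts called between 0% and 21.9% of all features in the main fit, and between 0.374% and 44.8% with the block. A share of all features over the 160 results together was not counted, so the 16 are not set against a background. No result that passed turned its direction. With 2 libraries per strain, changes under 2-fold are often missed, and differences that did not pass are not shown to be absent.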
